A study of Drosophila melanogaster with 48 samples.

Results

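The genes described here encode the dosage compensation complex of Drosophila melanogaster. They are the 5 protein-coding genes msl-1, msl-2, msl-3, mle and mof and the 2 noncoding RNA genes roX1 and roX2. Each was found as the row of the count table whose FlyBase identifier carries that symbol in the annotation, which gave 7 of the 17481 genes in the table. RNA was sequenced from single embryos of 8 lines, the Raleigh lines RAL307, RAL357, RAL360 and RAL517 from North America and the Zambia lines ZI050, ZI094, ZI160 and ZI470 from Africa. Every line gave 3 embryos at stage 2, when all RNA comes from the mother, and 3 at late stage 5, after the zygotic genome has become active and before gastrulation, 48 embryos in all. All lines are wild-derived and kept as inbred or isofemale stocks. The generations of inbreeding reported for the Raleigh lines exceed the minimum reported for the Zambia lines. How much of their genotype the 3 embryos of a line share was not measured. Mothers of 3 to 10 days were kept at 25 °C and 60% humidity. The stage 5 embryos were chosen as XY by genotyping, and the sex of the stage 2 embryos is not known.

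In males the complex binds along the single X chromosome and raises its transcription, so that X-linked genes reach the output of the paired X chromosomes of females. Msl-1 and Msl-2 form the core that recognises the X, Msl-3 reads a histone mark on active genes, Mof acetylates a histone tail, and Mle is the helicase that remodels the roX RNAs and loads them into the complex. In females the RNA-binding protein Sex-lethal blocks the translation of msl-2, and without Msl-2 the complex does not assemble.

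On the BDGP6 assembly msl-1 (FBgn0005617) lies on chromosome arm 2L from 18683720 to 18688800, and msl-2 (FBgn0005616) on the same arm from 3462218 to 3466112. The gene msl-3 (FBgn0002775) lies on 3L from 7123213 to 7125533, and mle (FBgn0002774) on 2R from 5974857 to 5980778. The members mof, roX1 and roX2 are X-linked, with mof (FBgn0014340) from 5873840 to 5876853, roX1 (FBgn0019661) from 3857230 to 3862697 and roX2 (FBgn0019660) from 11579065 to 11580432. All but roX2 lie on the minus strand. The strand setting of the read counting is not given in the sources used here, so antisense overlap matters for 2 members. An exon of echinus (ec) shares 392 bases, or 7.17%, of roX1 on the other strand, and form3 shares 85 bases, or 4.31%, of msl-3.

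Total counts per embryo ran from 25090803 to 30783589, except in RAL360 replicate 3 of stage 5, which had 340746. In that embryo a single count stands for 2.89 CPM (the read count divided by the library total after TMM adjustment) and a floor of 3 counts for 8.66 CPM. ZI470 replicate 1 of stage 2 also stood apart. The deviations of its genes from the mean of all stage 2 embryos had a correlation of -0.03 with those of the other embryos of its line. That value is not a correlation of the expression levels themselves. The summed level of the maternal markers bcd, osk and nanos was 1451 to 2411 CPM at stage 2 and 9.50 to 63.2 CPM at stage 5, and that of the zygotic markers ftz, eve, sna and twi was 0.972 to 4.17 CPM and 983 to 1379 CPM. The 6 eggshell genes that mark follicle cells summed to at most 0.219 CPM at stage 2 and 0.419 CPM at stage 5, with Vm32E at 0 in every embryo.

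The first comparison asked how the members differ between stage 2, when all RNA is maternal, and late stage 5. The authors state that some maternal transcripts remain at stage 5, so RNA of that stage can be of both origins. Transcripts of roX1, msl-2, roX2 and mle were higher at stage 5, and those of msl-1, msl-3 and mof were lower. All 7 members passed the test of stage (edgeR's quasi-likelihood test, Benjamini-Hochberg adjusted p under 0.01), but so did 92.1% of the 10193 genes tested, with 54.6% higher and 37.4% lower at stage 5. The median log2 change over all genes tested was 0.62 with TMM scaling and 0.78 with DESeq2's size factors, a shift of 0.17, and the median over the 7 members was 1.52 with TMM scaling. Relative to the median of all genes with TMM scaling, the changes were 8.79 for roX1, 5.27 for msl-2, 4.61 for roX2, 0.90 for mle, -0.86 for mof, -1.15 for msl-3 and -2.13 for msl-1, and each kept its sign with the other scaling. CPM is a share of the library total, so these changes are relative and need not be changes in the amount per embryo. In RNA of whole embryos at stage 5, fewer cells of a type and less RNA per cell cannot be told apart.

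**Figure D1:**
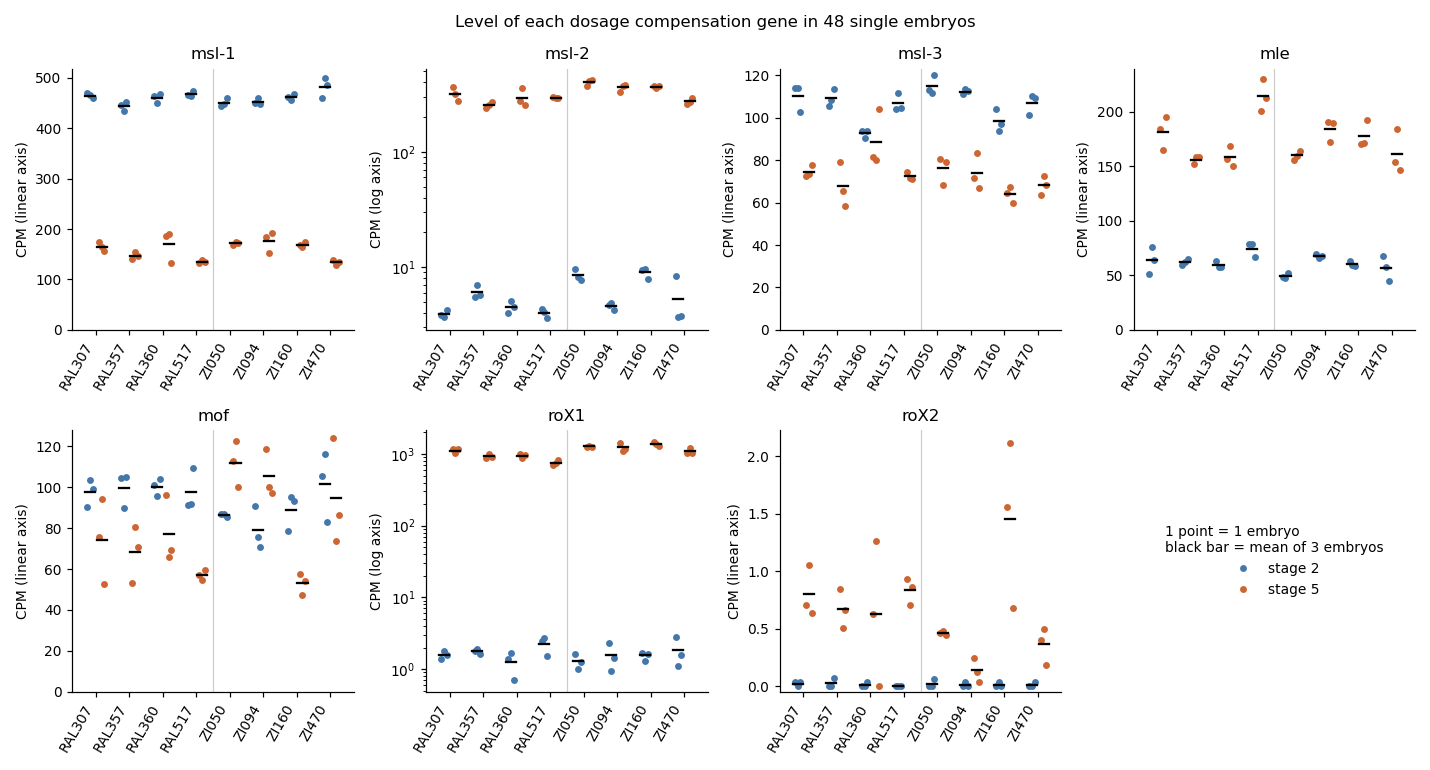
Level of each member in CPM (y axis, log for msl-2 and roX1 and linear for the others) in every embryo of the 8 lines (x axis), with a point per embryo, stage 2 in blue, stage 5 in orange and a black bar at the mean of the 3 embryos. The stages are fully apart for msl-1, msl-2, mle and roX1, and the mof panel shows both directions, with stage 5 means of 53.0 CPM in ZI160 and 112 CPM in ZI050.

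The scaffold gene msl-1 was the most abundant member in maternal RNA. Its level at stage 2 was 434 CPM in the lowest embryo, 460 in the median and 499 in the highest, and at stage 5 it was 128, 160 and 192 CPM. No stage 5 embryo reached the lowest stage 2 embryo. The fall was 2.91-fold between the means of the line means, with a fitted log2 change of -1.51 (SE 0.03, adjusted p = 2.15e-37 by edgeR's quasi-likelihood test), and it was called in all 8 lines. Of all genes, 80.5% were called in RAL307, 80.3% in RAL357, 78.9% in RAL360, 80.5% in RAL517, 80.5% in ZI050, 79.8% in ZI094, 80.9% in ZI160 and 79.7% in ZI470. Line means at stage 2 ran from 444 CPM in RAL357 to 481 CPM in ZI470, which made msl-1 the member with the smallest spread between lines at that stage, with a coefficient of variation of 2.52%.

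The gene msl-2, whose product is the limiting male subunit, behaved in the opposite way. Its transcripts stood at 3.62 CPM in the lowest stage 2 embryo, 4.80 in the median and 9.72 in the highest, and at 241, 307 and 416 CPM at stage 5. Every stage 5 embryo was above every stage 2 embryo by a wide margin. The rise was 55.9-fold between means of line means, with a log2 change of 5.89 (SE 0.07, adjusted p = 4.81e-43 by edgeR). Between lines the fold ran from 40.3 in ZI160, which had the highest stage 2 mean of 9.06 CPM, to 81.5 in RAL307, which had the lowest of 3.93 CPM. Embryos of the 2 stages did not overlap for 4 of the 7 members, msl-1, msl-2, mle and roX1, beside 43.3% of all genes tested. Without RAL360 replicate 3 of stage 5 it was 5 of 7, with msl-3 added, beside 51.8%.

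The chromodomain gene msl-3 had the smallest fitted log2 change among the members with a consistent direction. Relative to the median of all genes mle changed less, at 0.90 beside -1.15 for msl-3. Levels of msl-3 were 90.4 CPM in the lowest stage 2 embryo, 109 in the median and 120 in the highest, against 58.5, 72.0 and 104 CPM at stage 5. The only stage 5 embryo within the stage 2 range was RAL360 replicate 3, where the value of 104 CPM rests on 36 counts, and the other 23 reached at most 83.6 CPM. The log2 change was -0.53 (SE 0.03, adjusted p = 4.53e-19 by edgeR). All 8 line means were lower at stage 5, and the change was called in 7 lines and not in RAL360, where it was -0.12 (SE 0.09). The antisense neighbour form3 was at 21.2 CPM in ZI094 at stage 2 and at most 0.324 CPM in the other lines at that stage, while msl-3 in ZI094 was at 112 CPM, second in the order of lines behind ZI050 at 114.9 CPM. The part of form3 reads in the msl-3 count was not tested.

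The helicase gene mle rose from 44.8 CPM in the lowest stage 2 embryo, 62.9 in the median and 79.0 in the highest to 146, 169 and 230 CPM at stage 5. No embryos of the 2 stages overlapped. The rise was 2.82-fold, with a log2 change of 1.52 (SE 0.04, adjusted p = 1.00e-30 by edgeR), and it was called in all 8 lines. It lay between 2.50-fold in RAL357 and 3.24-fold in ZI050, the line with the lowest maternal level of 49.5 CPM.

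The acetyltransferase gene mof was the one member without a common direction. Its level was 70.5 CPM in the lowest stage 2 embryo, 92.3 in the median and 116 in the highest, and 47.1, 74.5 and 124 CPM at stage 5, so the stages overlapped over most of their range. The log2 change over all lines was -0.24 (SE 0.06, adjusted p = 0.000328 by edgeR), and with DESeq2's size factors in the same test it was -0.07 (adjusted p = 0.241) and no longer passed. Of the 8 lines 6 had lower means at stage 5, down to 0.586 of the stage 2 mean in RAL517, and ZI050 and ZI094 had higher means, up to 1.33-fold in ZI094. Within lines the fall was called in RAL357, RAL517 and ZI160, and no rise was called in any line. The fitted log2 values were 0.39 (SE 0.17, adjusted p = 0.0295 by edgeR) in ZI050 and 0.44 (SE 0.17, adjusted p = 0.0149) in ZI094.

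**Figure D2:**
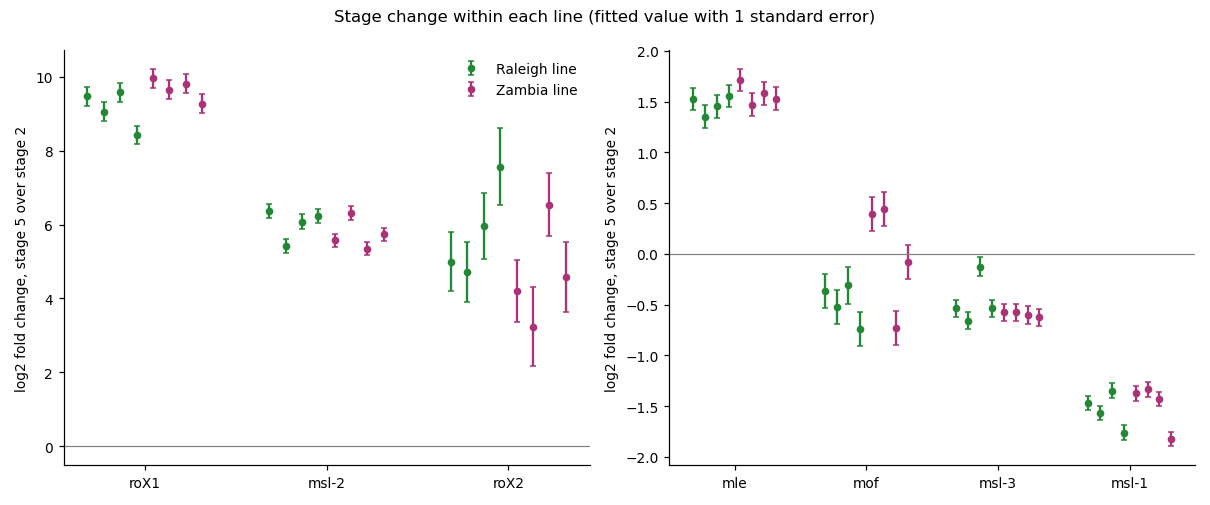
Fitted log2 fold change of stage 5 over stage 2 (y axis) of each member within each of the 8 lines, with Raleigh lines in green and Zambia lines in purple, in the order RAL307, RAL357, RAL360, RAL517, ZI050, ZI094, ZI160, ZI470, and bars of 1 standard error. Values of roX1 lie between 8.44 and 9.96, while those of mof lie on both sides of 0, from -0.74 in RAL517 to 0.44 in ZI094.

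Of the 2 noncoding members, roX1 had the largest change. It was counted in all 24 stage 2 embryos, at 0.706 CPM in the lowest, 1.60 in the median and 2.77 in the highest, and stood at 692, 1068 and 1452 CPM at stage 5. The rise was 669-fold between means of line means, with a log2 change of 9.41 (SE 0.09, adjusted p = 4.63e-45 by edgeR). By line it ran from 340-fold in RAL517 to 988-fold in ZI050. Echinus, on the opposite strand, moved in the same direction, from line means of 0.824 to 2.03 CPM at stage 2 to 357 to 613 CPM at stage 5, and its part in the roX1 count was not tested. The level of roX1 at stage 5 was 1.62 to 3.13 times that of echinus in every line.

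The second RNA, roX2, was near the limit of detection. At stage 2 it had 10 counts in all, in 8 of the 24 embryos and with at most 2 in an embryo, which is under the floor of 3 counts. At stage 5 it had 417 counts in 23 embryos, and the 1 embryo without a count was RAL360 replicate 3. The ratio of the pooled levels was 52.1, with an exact 95% interval of 28.0 to 109 that covers counting error only. The fitted log2 change was 5.23 (SE 0.33, adjusted p = 2.07e-17 by edgeR), a value that depends on the prior count in the fit. At its highest line mean of 1.45 CPM, in ZI160, roX2 was far under roX1, whose level per kb of exon was 228 times that of roX2 in RAL517 and 2264 times in ZI094, the ends of the range over lines at stage 5. The ratio in ZI094 rests on 10 counts of roX2 in that line at stage 5.

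Levels were divided by exon length to compare genes. The length is that of all annotated exons of a gene merged, which need not be that of the transcripts present, so ratios between genes are approximate. At stage 2 the order of CPM per kb was msl-1, msl-3, mof, mle and msl-2 in all 24 embryos, and msl-2 stood at a median of 0.0138 of msl-1 over the 8 lines (0.0110 in RAL307 to 0.0256 in ZI160). At stage 5 msl-2 was the highest of the 5 protein-coding members in all 24 embryos, at a median of 2.69 times msl-1 (2.27 in RAL360 to 3.06 in ZI050), and the other 4 followed in 9 different orders. The levels per kb of msl-3 and mle relative to msl-1 also moved, from medians of 0.594 and 0.145 at stage 2 to 1.17 and 1.15 at stage 5. The ratio of roX1 to msl-2 per kb went from a median of 0.221 at stage 2 to 2.42 at stage 5. These ratios are descriptions with no test.

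**Figure D3:**
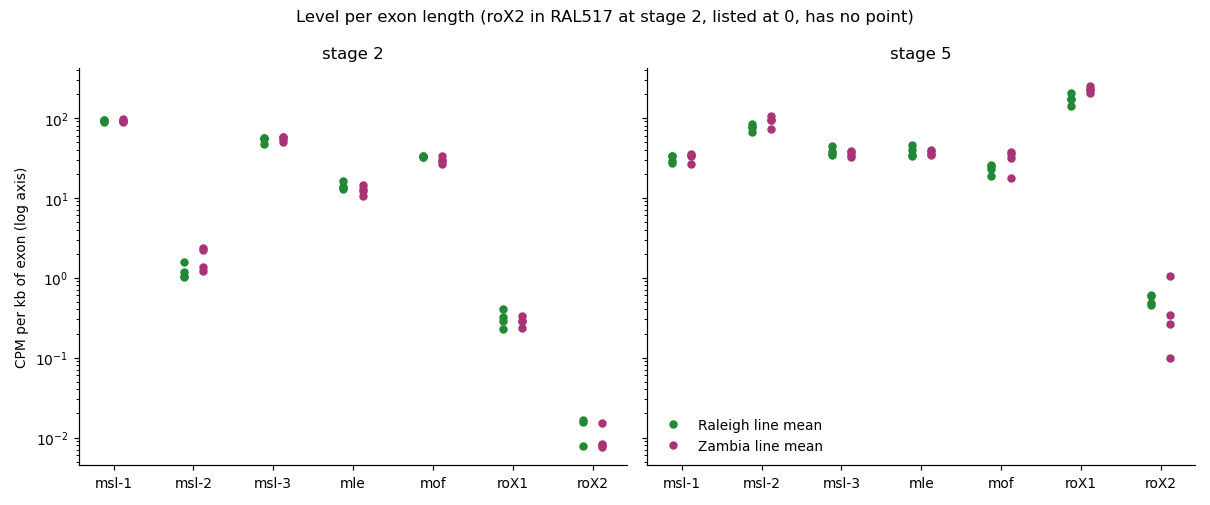
Line means of each member in CPM per kb of exon (y axis, log) at stage 2 and stage 5, with a green point for each Raleigh line and a purple one for each Zambia line. At stage 2 msl-1 is at the top and msl-2 is the lowest protein-coding member, at 0.0110 to 0.0256 of msl-1 over the lines, and at stage 5 msl-2 is above msl-1 in every line.

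The next comparison asked whether the members differ between the Raleigh and Zambia populations, with the 12 embryos of a population as replicates. At stage 2 none of the 6 members tested was DE by edgeR's quasi-likelihood test, beside 6.75% of the 7566 genes tested (2.89% higher and 3.86% lower in Zambia), and DESeq2's test called none either. At an unadjusted p under 0.05 there were 2, msl-2 and mof. For msl-2 at stage 2 the 4 Raleigh line means averaged 4.64 ± 1.01 CPM and the 4 Zambia line means 6.86 ± 2.25 CPM (SD over lines), a log2 difference of 0.58 (SE 0.18, adjusted p = 0.0261 by edgeR). The 2 highest Zambia lines were ZI160 at 9.06 CPM and ZI050 at 8.51 CPM, while ZI094 at 4.61 CPM was below RAL357 at 6.10 CPM. The smallest difference was that of msl-1, at 0.02 (SE 0.02) on the log2 scale.

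At stage 5 roX1 was DE between populations, the only call among 7 members beside 13.3% of the 10000 genes tested (6.01% higher and 7.25% lower in Zambia). Line means of roX1 were 759 CPM in RAL517, 929 in RAL357, 945 in RAL360 and 1114 in RAL307, against 1102 in ZI470, 1231 in ZI094, 1272 in ZI050 and 1381 in ZI160. The groups overlapped only in that RAL307 was above ZI470. Raleigh lines averaged 937 ± 145 CPM and Zambia lines 1246 ± 115.3 CPM (SD over 4 lines), a log2 difference of 0.41 (SE 0.08, adjusted p = 0.000581 by edgeR). When the 8 line means were permuted, the exact two-sided p was 0.0571, where 35 splits allow no p under 0.0286, and with embryos of a line summed the adjusted p by edgeR was 0.247. The summed zygotic markers were also higher in Zambia at stage 5, with a median of 1245 CPM (1170 to 1379) against 1120 CPM (983 to 1207) in Raleigh. Their part in the roX1 difference was not tested.

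None of the other members passed at stage 5. For msl-2 the Raleigh lines averaged 292 ± 26.4 CPM and the Zambia lines 351 ± 53.1 CPM, a log2 difference of 0.26 (SE 0.08, adjusted p = 0.0192 by edgeR, exact permutation p = 0.114). For mof they were 69.1 ± 8.90 CPM and 91.2 ± 26.4 CPM, a difference of 0.39 (SE 0.15, adjusted p = 0.0594 by edgeR, exact permutation p = 0.257). The highest 3 means of mof were all in Zambia lines, and ZI160 had the lowest of all 8. The 4 remaining members had log2 differences from -0.39 in roX2 to 0.07 in msl-1. No member had line means that were fully apart between the populations, at stage 2 beside 5.86% of genes and at stage 5 beside 7.49%. Over the 13 permutation tests of members and stages no exact p was below 0.05.

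**Figure D4:**
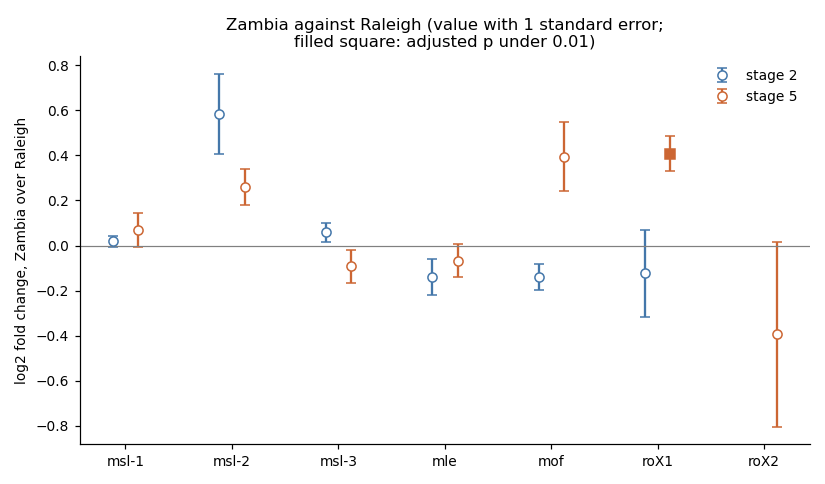
Fitted log2 fold change of Zambia over Raleigh (y axis) of each member at stage 2 (blue) and stage 5 (orange) with bars of 1 standard error, where a filled square marks an adjusted p under 0.01. Only roX1 at stage 5, at 0.41, is marked, and roX2 has no stage 2 point because it did not pass the filter on low counts.

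The stage change itself was compared between populations over all 48 embryos. It was larger in Zambia for roX1 by 0.54 on the log2 scale (SE 0.16, adjusted p = 0.00934 by edgeR) and higher for mof by 0.49 (SE 0.12, adjusted p = 0.00169), so 2 of 7 members were called beside 18.1% of all genes (9.08% with a higher and 9.03% with a lower value in Zambia). The call of roX1 lay at the threshold, since it held in only 9 of the 48 fits that each left out 1 embryo, with adjusted p from 0.000759 to 0.0265. That of mof held in all 48, but neither was called with embryos of a line summed (adjusted p of 0.617 for roX1 and 0.679 for mof by edgeR). The values for msl-2 and msl-3 were -0.28 (SE 0.11, adjusted p = 0.066 by edgeR) and -0.13 (SE 0.06, adjusted p = 0.112). Without RAL357 both were called, at -0.51 (adjusted p = 0.00328 by edgeR) and -0.22 (adjusted p = 0.00588), and roX1 was not (0.49, adjusted p = 0.0509).

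Differences among the 4 lines of a population were tested next. At stage 2 none of the 6 members tested was called by edgeR within Raleigh, beside 21.0% of all genes, or within Zambia, beside 17.2%, with 3 members at an unadjusted p under 0.05 in each and 3 called by DESeq2's test in each. Those of DESeq2 were msl-1, msl-2 and msl-3 within Raleigh and msl-2, msl-3 and mle within Zambia. In ZI470 at stage 2 msl-2 stood at 8.36 CPM in replicate 1 and at 3.67 and 3.80 CPM in the other 2 embryos, the widest spread of msl-2 within a line. Without that embryo msl-2 was called within Zambia (adjusted p = 4.48e-05 by edgeR) and so was mle (adjusted p = 0.00087). The gene mle was also called without ZI470 replicate 3.

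Within Raleigh at stage 5 roX1 and mle were called, beside 25.0% of all genes. RAL517 had both the lowest roX1, with embryos at 692, 758 and 827 CPM, and the highest mle, with embryos at 201, 230 and 212 CPM. Its embryos did not overlap with those of the neighbouring line in either order. The range between the highest and lowest line was 0.56 on the log2 scale for roX1 (adjusted p = 0.00339 by edgeR) and 0.45 for mle (adjusted p = 0.00653). Without 1 embryo the calls held in 8 of 12 fits for roX1 and in 4 of 12 for mle. The roX1 call was lost without RAL307 replicate 1 or 3 or RAL517 replicate 1 or 2, with adjusted p up to 0.0173. The mle call was kept without RAL307 replicate 2 or 3 or RAL360 replicate 2 or 3, and adjusted p reached 0.027 without another embryo. Without the shallow RAL360 replicate 3, msl-1 was called as well (adjusted p = 0.00457), as it was by DESeq2's test and in a fit of all 24 embryos of the stage.

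Within Zambia at stage 5 the members msl-1, msl-2, mof and roX2 were called, 4 of 7 beside 50.2% of all genes. The widest range was that of roX2, at 3.40 on the log2 scale (adjusted p = 0.00117 by edgeR). Its embryos were at 1.56, 2.12 and 0.676 CPM in ZI160 and at 0.246, 0.123 and 0.039 CPM in ZI094. These rest on 106 counts in ZI160 and 10 counts in ZI094. The embryo at 0.039 CPM had 1 count, under the floor of 3 counts, which is 0.118 CPM in the median stage 5 library. For mof the range was 1.06 (adjusted p = 0.000554), with embryos at 57.6, 47.1 and 54.3 CPM in ZI160 and at 113, 122 and 100.1 CPM in ZI050. ZI160 thus had the highest roX2 and the lowest mof of all 8 lines. For msl-2 the range was 0.53 (adjusted p = 0.000188), from 276 CPM in ZI470 to 401 CPM in ZI050. For msl-1 it was 0.38 (adjusted p = 0.00326), set by ZI470 at 134 CPM against 169 to 176 CPM in the other 3 lines. The call of msl-1 was lost without ZI470 replicate 2 or 3, with adjusted p up to 0.0185, and those of msl-2, mof and roX2 held in all 12 fits.

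Over the 8 line means at stage 5, msl-2 and roX1 had a Pearson r of 0.70 and mof and roX2 one of -0.83. These were the highest and the lowest r of the 21 pairs of members at that stage. The roX2 mean of ZI094 rests on 10 counts. That of RAL360 was 0.631 CPM, and 0.947 CPM without its shallow replicate 3. The lines of a population share ancestry, and the r values are given as descriptions. Over the 16 line-by-stage means each member was compared with 10192 other genes. The patterns most like roX1 were those of Ptr and ptc (r of 0.9997 and 0.9996). Those most like msl-2 were Secp43 and CG5033 (0.995 for both), and those most like roX2 were CG3597 (0.971) and ms(3)76Cc (0.960). For msl-1 they were AP-1gamma and CG5726 (0.997 for both), for mle Ehbp1 and Bx42 (0.988 for both), and for msl-3 SCCRO (0.971) and bc10 (0.967). Those of mof, PIG-Q (0.867) and CG7872 (0.844), were the least like their member. With all 16 points the difference between stages sets most of these values. Over the 8 stage 5 line means, with 9999 genes searched, the patterns most like roX1 were CG32809 (0.966) and lncRNA:CR44218 (0.965). Those most like roX2 were Myo81F (0.931) and BaraC (0.929).

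Genes that act on msl-2 and on the X chromosome were also measured. Of 5 genes of msl-2 repression, 4 rose at stage 5 and none fell, beside 54.6% of all genes that were called higher and 37.4% called lower. Their median log2 change was 0.89 beside 0.62 over all genes. Sex-lethal (Sxl), the repressor itself, was at 210 to 340 CPM over the 24 stage 5 embryos and at 124 to 304 CPM at stage 2, a log2 change of 0.36 (SE 0.05, adjusted p = 9.35e-09 by edgeR). These counts do not separate its male and female transcripts. Its corepressor Unr had a value of -0.09 (SE 0.07, adjusted p = 0.209), and how, whose product acts with Sxl on msl-2 RNA in the nucleus, rose by 1.92 (SE 0.03). Hrb27C and pAbp rose by 0.98 and 0.89.

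Of 7 partners on the X chromosome 3 rose and 4 fell, beside the same 54.6% and 37.4% of all genes, with a median log2 change of -0.78 beside 0.62. Clamp, the zinc finger protein that binds the same X-linked sites as the complex, fell from 267 ± 12.8 CPM to 152 ± 13.3 CPM (SD over 8 lines), a log2 change of -0.78 (SE 0.03, adjusted p = 2.57e-25 by edgeR). The kinase gene JIL-1 had a change of -1.52 and the remodeler Iswi one of 1.72. Of 6 genes of the NSL complex, the other complex that contains Mof, 2 rose and 4 fell, beside 54.6% higher and 37.4% lower of all genes, and their median was -0.31 beside 0.62. The largest changes were 1.21 in wds, -0.87 in Rcd1 and 0.46 in Rcd5. Pof, whose product binds the fourth chromosome, had a change of -0.28. All 6 genes of the sex signal rose, beside 54.6% of all genes, with a median of 7.18 beside 0.62, led by upd1 (9.82), run (9.39) and sisA (7.84). Between populations at stage 5, 1 gene of each of these 5 lists was called and all 5 were higher in Zambia, beside 13.3% of all genes called and 6.01% higher. They were Top2 by 0.19, Hrb27C by 0.26, nsl1 by 0.27, Pof by 0.37 and run by 0.29 on the log2 scale. Pof is alone in its list. The list medians were -0.007 for the X-chromosome partners, 0.14 for msl-2 repression, 0.14 for the NSL complex and 0.31 for the sex signal. Genes not called went both ways, as Iswi at 0.16 (adjusted p = 0.0181 by edgeR) and E(bx) at -0.25 (adjusted p = 0.0241). The 5 calls take embryos as replicates, and with embryos of a line summed 1 gene of all those tested was called.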

How the data were processed

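Paired reads of poly-A RNA were trimmed (Cutadapt), mapped to the FlyBase genome (HISAT2 2.1.0) and assigned to genes (featureCounts) by the authors, who deposited raw counts of 48 embryos with no normalization. RAL357 columns share 1 name per stage, so its embryos carry no number. Positions and exon lengths were read from a later annotation of the same BDGP6 assembly. It matched 17343 of 17481 genes.

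Tests used edgeR 4.0.16 in R 4.3.3 (TMM, filterByExpr with minimum count 10 and minimum total 15, quasi-likelihood F-test, Benjamini-Hochberg adjusted p under 0.01) on all genes, with DESeq2 1.42.0 as an alternative. Stage and interaction were fitted over 16 line-by-stage groups, and populations over 24 embryos, which takes embryos as replicates. Line means were permuted exactly on log2(CPM + 0.5). CPM used TMM scaling over all embryos. The members and gene lists were chosen with earlier results of these data known. Besides members, up to 3 genes of a list with the largest called stage change were named, and Sxl, Unr and Clamp always. A gene that this rule names among the X-chromosome partners, a heterochromatin protein gene that rose, is not reported here. Top2, nsl1 and the differences of listed genes between populations were named after their values were seen. Likeness was Pearson's r over line means, with the 2 best genes per member.

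Embryos of a line were checked for duplicates (lowest chi-squared per degree of freedom 3.86), and no embryo was left out. In a simulation of the stage test, 189 of the 200 genes given a 2-fold change, among 9240, were recovered and 0 others were called. The dispersion was set to 0.02, and the other genes were given no change. Over all comparisons the recovered genes ran from 162 of 200, for the interaction, to 194, between populations at stage 2. At most 3 others were called, as within Raleigh at stage 5. Apart from the changes given, the simulated lines had no effect of their own. The simulation therefore could not show false calls that come from taking embryos as replicates of a population. In the data 92.1% of genes were called for stage, and a change that wide was not tested. Fits that left out an embryo kept the genes tested in the full fit. Alternatives were DESeq2's size factors and test, no filter, an adjusted p under 0.05, line sums, pooled designs, a replicate block, other pseudocounts and leaving out embryos.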

Additional observations from a re-analysis of the deposited data

Results flagged for a closer look

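Among the 4 Zambia lines at stage 5, ZI470 stood apart with the lowest msl-1. Its mean of 134 CPM lay below the next line, ZI160 at 169 CPM, by 0.832 of the whole range, just above Dixon's 95% critical value of 0.829. With 26 sets of 4 line means examined, chance alone gives about 1 in 20 such sets.

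With embryos as replicates, the change between stages was called different between the populations for roX1 and mof. The log2 difference (Zambia minus Raleigh) was 0.54 for roX1 and 0.49 for mof, by the interaction term in edgeR's quasi-likelihood test over 48 embryos. With embryos of a line summed neither was called (adjusted p of 0.617 for roX1 and 0.679 for mof by edgeR). All 4 Raleigh lines and the Zambia lines ZI160 and ZI470 had a lower mof mean at stage 5, and only ZI050 and ZI094 had a higher one.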

How the results depend on the processing

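All 7 stage calls held without the filter, with an adjusted p under 0.05, with line sums and in the 48 fits that left out 1 embryo (7 members in each). With DESeq2's size factors, DESeq2's test or 4 stage by population cells 6 were called, without mof, at -0.07, -0.07 and -0.22 on the log2 scale. The interaction counted 2 members, but 1 with DESeq2's size factors, 0 with line sums, 0 with 4 cells, 3 without RAL357 with or without the block and 1 to 2 without 1 embryo. The cause was not tested.

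Between populations at stage 2 the count was 0, and 1 with an adjusted p under 0.05 (0 without any 1 embryo). The value of msl-1 there turned from 0.02 to -0.0096 without RAL357 and to -0.0097 without that line and with the replicate block, and its interaction turned from 0.05 to -0.0059 with DESeq2's test. At stage 5 the count was 1, and 2 with an adjusted p under 0.05, 0 with line sums and 1 to 2 without 1 embryo. The member added was msl-2, without RAL307 replicate 1, RAL360 replicate 2 or ZI470 replicate 1, with an adjusted p down to 0.00767 by edgeR. No exact permutation p was under 0.05 with any pseudocount or without RAL360 replicate 3, where only line means that are fully apart could give one (0.0286).

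Within Raleigh the count at stage 2 was 0, with 3 by DESeq2's test, 1 in a fit of all 24 embryos, 2 with an adjusted p under 0.05 and 0 to 1 without 1 embryo. At stage 5 it was 2, with 1 without RAL357, 3 by DESeq2's test, in a fit of all 24 embryos or with an adjusted p under 0.05 (msl-1 added in each) and 0 to 3 without 1 embryo. Within Zambia at stage 2 it was 0, with 3 by DESeq2's test, 1 in a fit of all 24 embryos, 2 without both libraries that stood apart (a choice made after seeing the data), 3 with an adjusted p under 0.05 and 0 to 2 without 1 embryo. At stage 5 it was 4, and 3 to 5 without 1 embryo.

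Whether replicate numbers pair the embryos was not tested. Deviations of same-numbered embryos from their line means had a correlation over 0.1 in 20 of 63 cases at stage 2, in 13 of 63 at stage 5 and in 0 of 21 between the stages of a line. Across lines the median was 0.033 at stage 2 and 0.025 at stage 5, beside -0.020 and -0.014 for embryos with different numbers. A replicate block over the 7 numbered lines called 7 members for stage, 3 for the interaction (msl-2, msl-3 and mof), 0 and 1 between populations, 0 and 1 within Raleigh and 0 and 4 within Zambia at stages 2 and 5. The same lines without the block gave the same counts.

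Leaving out an embryo makes the smallest group 2 embryos, so filtering on low counts again admits other genes. This was tried first, and the fits given above, which keep the genes of the full fit, were chosen after seeing its results. It gave the same ranges of counts, with the interaction of roX1 called in 8 of 48 fits rather than 9. Within Raleigh at stage 5 mle was called in 7 of 12 fits rather than 4. Between populations at stage 5 msl-2 was called in 4 of 24 fits rather than 3. Depth limits roX2, whose stage 2 counts are under the floor in every embryo, and every value of RAL360 replicate 3 of stage 5. At stage 5 roX2 also had only 10 counts over the embryos of ZI094.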
